A study of Mus musculus with 3 samples.

Results

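The cells described here are the Elane/Mpo/Prtn3-positive blood cells of mouse calvaria, the flat bone of the skull roof with its marrow spaces. They were chosen by their own transcripts. A barcode was kept when it held 500 or more genes and at most 10% mitochondrial UMIs (unique molecular identifiers, each standing for 1 captured transcript). A kept barcode belonged to the set when Elane, Mpo and Prtn3 together reached 20 UMIs per 10000 of the cell (CP10K), when it held at least 1 Ptprc UMI, and when Krt8+Krt18 and Col1a2+Col3a1 were each under 5 CP10K. Ptprc encodes CD45, the keratins mark epithelial and carcinoma cells, and the collagens mark stroma. The rule found 750 of 23831 kept barcodes, 195, 389 and 166 in 3 libraries named control, scratch-negative and scratch-positive. Values of the 3 libraries are given in that order throughout. The working label for these cells was granulocyte-monocyte progenitors, and its 5 markers (Elane, Mpo, Prtn3, Ctsg, Ms4a3) were all abundant. Most of the cells also carried large amounts of specific granule transcripts and very few monocyte or stem cell transcripts, so they are named here by the genes of the rule.

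Neutrophils are made in marrow through an ordered granule programme. Promyelocytes fill azurophil granules with myeloperoxidase (Mpo) and the serine proteases neutrophil elastase (Elane), proteinase 3 (Prtn3) and cathepsin G (Ctsg). Myelocytes and metamyelocytes then switch to specific granules, which hold lactoferrin (Ltf), cathelicidin (Camp) and neutrophilic granule protein (Ngp), and division stops before the late stages. The factors PU.1 (Spi1), C/EBPα (Cebpa), MYB and GFI1 act in the early steps, and C/EBPε (Cebpe) is needed for specific granules. Granulocyte-monocyte progenitors are known to stand before this programme with Kit and Cd34 on, and to give rise to monocytes through IRF8 as well as to neutrophils.

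All mice were C57BL/6 and 8 weeks old. Control calvaria came from tumour-free animals, and both other groups were taken 1 week after HNM007 cells, a mouse head and neck squamous carcinoma line, were placed on the calvaria. In the scratch-positive group (called the invasive stage by the submitters) the bone had first been scratched with a 21 G needle, which strips the periosteum, whereas the scratch-negative group (called pre-invasive) was left unscratched. The tumour was excised, and live CD45+ and CD45– cells were mixed in equal parts before capture. Each group was 1 library, the number of animals behind it was not given, and no scratched calvaria without tumour was sampled, so scratch, loss of periosteum and invasion cannot be told apart. With 1 library per group there is no replicate check and no test. Cells of a library are not replicates, so every interval is a 95% interval for counting error only.

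The kept barcodes numbered 6577, 8151 and 9103, with median depths outside the set of 8890.5, 10682.5 and 14240.0 UMIs. The positive cells were far deeper, with medians of 43961, 47325 and 32932.5 UMIs and 4699, 4850.0 and 4040.0 genes per cell. Barcodes with the highest Scrublet doublet scores made up 2.56, 11.3 and 1.81% of them against 5.99, 6.81 and 7.60% of all kept barcodes. Libraries shared between 16 and 30 barcode sequences in pairs, and none of these was a positive cell in both. The Elane+Mpo+Prtn3 part of the rule alone was passed by 231, 491 and 224 barcodes, of which 34, 69 and 44 lacked a Ptprc UMI. Of those with Ptprc, 0, 4 and 11 were past the keratin limit and a further 2, 29 and 3 past the collagen limit. Cells just inside the rule (20 to 25 CP10K) numbered 8, 21 and 6 with Elane at 1178, 883 and 713 CPM (the UMIs of a gene summed over the cells of a library, scaled to a total of 1000000). Cells just outside (15 to 20 CP10K) numbered 12, 24 and 10 with Elane at 927, 692 and 522 CPM. Cells thus lay close to the limit on both sides. Elane is part of the score, so its levels there are description only.

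Elane and Prtn3 are neighbours on chromosome 10 and are shown with their upstream sequence because both hold the same motif in the window searched. In mm10, Elane lies at chr10:79886247-79888215 (plus strand) and Prtn3 at chr10:79874476-79883174 (plus). Mpo is at chr11:87793581-87804413 (plus), Ctsg at chr14:56099881-56102574 (minus) and Ms4a3 at chr19:11629496-11640851 (minus), and all 5 are annotated as protein coding. Upstream sequences from RefSeq (GRCm38.p6) were searched on both strands in the 200 bases before the RefSeq start for GAGGAAGT, a PU.1-type ETS motif. The letters in capitals are that motif. The stretches printed stop at the gene's first base or at an annotated exon, and are Elane chr10:79886112-79886246 on the plus strand, Prtn3 chr10:79879467-79879613 on the plus strand (inside the longer GENCODE span of the gene), and Ctsg chr14:56102575-56102774 on the minus strand as a protease gene of the same granule without a match.
Elane: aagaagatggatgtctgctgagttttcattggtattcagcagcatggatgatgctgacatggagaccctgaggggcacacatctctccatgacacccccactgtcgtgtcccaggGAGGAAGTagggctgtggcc
Prtn3: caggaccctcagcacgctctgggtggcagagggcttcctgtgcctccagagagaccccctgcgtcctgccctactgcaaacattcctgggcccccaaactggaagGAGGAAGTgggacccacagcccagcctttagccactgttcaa
Ctsg: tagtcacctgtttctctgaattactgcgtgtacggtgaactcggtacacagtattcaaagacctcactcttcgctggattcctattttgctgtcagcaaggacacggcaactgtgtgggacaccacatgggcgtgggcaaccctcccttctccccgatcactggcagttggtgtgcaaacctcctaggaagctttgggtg
The motif stood 85 bases before the RefSeq start of Elane and 95 before that of Prtn3. The Elane window ended at chr10:79886311, inside the GENCODE span of the gene, so the motif is nearer to the gene's first GENCODE base. It was found in 672 of 32505 windows of that length (2.07%). The windows of Mpo, Ctsg, Ms4a3, Camp, Ngp and Ltf had none, and that of the calgranulin gene S100a8 had 1 on the other strand. The Mpo window lies wholly inside the GENCODE span of the gene, and only 39 bases of the Camp window lie before its span. For Mpo and Camp the search thus covered little or no sequence upstream of the annotated gene. The same windows of Elane and Prtn3 each held AACGG, a MYB-type core, at 50 and 55 bases before the start. It overlaps no copy of GAGGAAGT there, lies at or past the end of the printed stretches, and is held by 11.9% of windows. The shorter ETS core GGAAG, which GAGGAAGT contains, is in 56.8% of windows. A match is a run of letters and shows no binding.

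The set was a larger part of the Ptprc-positive barcodes in the scratch-negative library than in the control. Counted over the barcodes that met every part of the rule other than the Elane+Mpo+Prtn3 score, the share was 3.33% (2.88 to 3.82) in the control, 6.104% (5.53 to 6.72) in the scratch-negative and 4.496% (3.85 to 5.22) in the scratch-positive library (exact Clopper-Pearson intervals). The 3 intervals do not overlap. Over all kept barcodes the shares were 2.96% (2.57 to 3.40), 4.77% (4.32 to 5.26) and 1.82% (1.56 to 2.12). The scratch-negative library was highest by both counts, whereas the order of control and scratch-positive turned with the denominator. The sort mixed CD45+ and CD45– cells in fixed parts, so neither share is a share of the tissue.

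**Figure D1:**
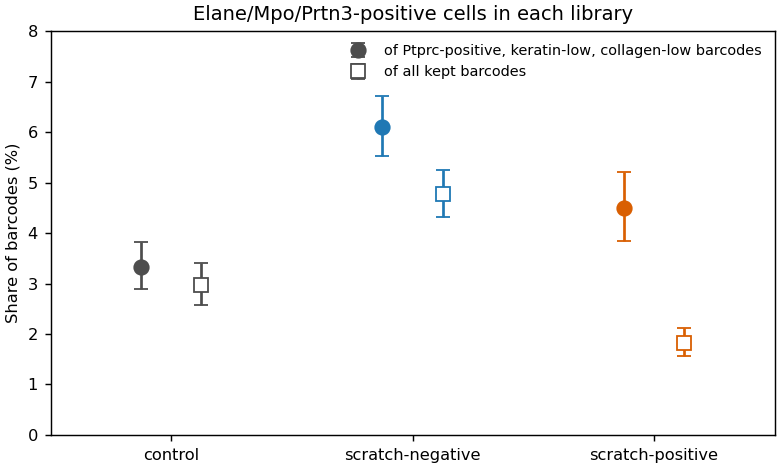
Share of Elane/Mpo/Prtn3-positive cells (percent, y axis) in the 3 libraries with exact 95% intervals for counting error. Filled points are shares of the barcodes that met the other parts of the rule (3.33, 6.104 and 4.496%), open points are shares of all kept barcodes (2.96, 4.77 and 1.82%). The scratch-negative library is highest by both, and the scratch-positive library lies above the control only for the filled points.

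The azurophil genes that chose the cells were at high level in each library. Elane stood at 10442, 8559.6 and 7689 CPM, Prtn3 at 7226, 7846 and 6963 CPM and Mpo at 2539, 1953 and 1297 CPM. These are description only, since the rule used them. Ctsg, which the rule did not use but which varies with the rule genes from cell to cell, was at 2441, 2480.4 and 1322 CPM. The Ctsg level of the scratch-positive cells was 1.85-fold (1.80 to 1.89) lower than the control's, under the 2-fold used here as the size of a call. Ms4a3, a membrane protein and lineage marker of granulocyte-monocyte progenitors and their offspring, was level at 1094, 1213 and 1124 CPM. Prss57, a further azurophil serine protease, was at 228, 226 and 176 CPM, and Nkg7, a granule membrane protein of cytotoxic and myeloid cells, at 674, 628 and 434 CPM. The scratch-positive library was lowest for each of these but Ms4a3.

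To set shares of cells with a transcript against other cells of the same libraries, every cell was thinned to 5000 UMIs, which left out 4, 7 and 1 positive cells as too shallow. Ms4a3 was then seen in 94.2, 94.8 and 96.4% of the positive cells (99.0, 98.7 and 99.4% before thinning). It was seen in 2.55, 1.5 and 0.270% of Csf1r/Ccr2-positive cells, a monocyte comparator that should lack it, with at least 1 UMI of both monocyte receptors. The comparator also met the Ptprc, keratin and collagen parts of the rule. It was limited to Elane+Mpo+Prtn3 under 20 CP10K and Ltf+Camp+Ngp under 20 CP10K. Low shares of granule genes in the comparator are therefore set in part by that choice. Its median depths were 9164, 9872 and 17265 UMIs before thinning. Ctsg was seen in 72.8, 67.8 and 59.4% (94.4, 92.5 and 84.3% before thinning) against 5.10, 6.50 and 1.08% of the comparator. Elane, by which the cells were chosen, was found in 12.2, 11.5 and 3.50% of the comparator, cells that should not make it. Those shares are what was left under the comparator's limit on Elane+Mpo+Prtn3.

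Genes of the monocyte branch were seen in few of the cells. Irf8, which directs progenitors to monocytes and dendritic cells, was seen in 1.05, 3.66 and 4.85% of thinned positive cells (7.69, 14.4 and 14.5% before thinning) and in 38.3, 53.0 and 36.7% of the monocyte comparator. Csf1r, the receptor for macrophage colony-stimulating factor and part of that comparator's rule, was seen in 3.14, 5.24 and 7.27% (15.4, 18.3 and 22.3% before thinning) and 77.0, 78 and 68.5%. Ly86, a lipopolysaccharide co-receptor subunit, was seen in 2.62, 3.66 and 2.42% (10.8, 13.9 and 12.7% before thinning) and 75, 69.0 and 44.5%. Camp-high cells are neutrophil-lineage barcodes with Ltf+Camp+Ngp at 50 CP10K or more and Elane+Mpo+Prtn3 under 20. There Irf8 was seen in 0.910, 3.15 and 6.54%, Csf1r in 4.71, 4.98 and 13.5% and Ly86 in 1.35, 3.13 and 7.16%, and in the scratch-positive library Csf1r and Ly86 were seen in a smaller share of the positive cells than of the Camp-high cells.

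Genes of stem and multipotent progenitors were sparse. Cd34 totalled 12, 12 and 0 UMIs in the positive cells and Flt3 totalled 2, 6 and 1. Of the 15 genes of the stem and multipotent list, 7 reached the 50 UMIs in control and scratch-negative cells together that a comparison asked for here. Kit, the stem cell factor receptor, was seen in 11.52, 7.59 and 2.42% of thinned cells (60.5, 49.4 and 21.7% before thinning).

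Genes of the neutrophil branch were present in nearly every cell. Cebpe was seen in 89.5, 86.9 and 91.5% of thinned positive cells (97.9, 98.5 and 98.8% before thinning), in 50.6, 53.5 and 51.5% of Camp-high cells and in 6.12, 3.50 and 2.96% of the monocyte comparator. Fcnb, ficolin B of the specific granule, was seen in 92.1, 94.0 and 94.5% (99.5, 98.2 and 99.4% before thinning), 30.4, 32.0 and 31.9% and 7.65, 6.50 and 1.08%. Both shares were higher in the positive cells than in Camp-high cells in all 3 libraries. The calgranulin S100a8 was in every thinned positive cell (100%) and also in 100, 100 and 91.9% of the monocyte comparator, so its presence in a cell separates nothing. Camp was in 94.2, 96.6 and 96.4% of the positive cells (100, 100 and 100% before thinning) and 89.3, 86.5 and 53.1% of the comparator. Its level was 37179, 36536 and 41175 CPM in the positive cells and 438, 392 and 131 CPM in the comparator. Since the comparator was limited to Ltf+Camp+Ngp under 20 CP10K, that difference was set in part by choice and is description only. By the markers seen in the positive cells themselves, the label of a progenitor with both fates is not borne out for most of the cells.

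Across single cells, azurophil and specific granule transcripts ran in opposite directions. The Elane+Mpo+Prtn3 score had a median of 167, 148 and 97.1 CP10K and the summed Ltf+Camp+Ngp score a median of 584, 630.0 and 737 CP10K. Their Spearman rho over cells was -0.86, -0.81 and -0.60, a description over cells that share a library and a total, so that a rise of one score lowers the other. Elane and Prtn3 moved together (rho 0.92, 0.93 and 0.90), as did Mpo and Ctsg (rho 0.89, 0.87 and 0.84). Ctsg, outside the rule, was inversely related to the Ltf+Camp+Ngp score (rho -0.87, -0.82 and -0.72) and S100a8 directly (rho 0.87, 0.84 and 0.73). The link was loosest in the scratch-positive library for the 2 scores and for Ctsg.

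**Figure D2:**
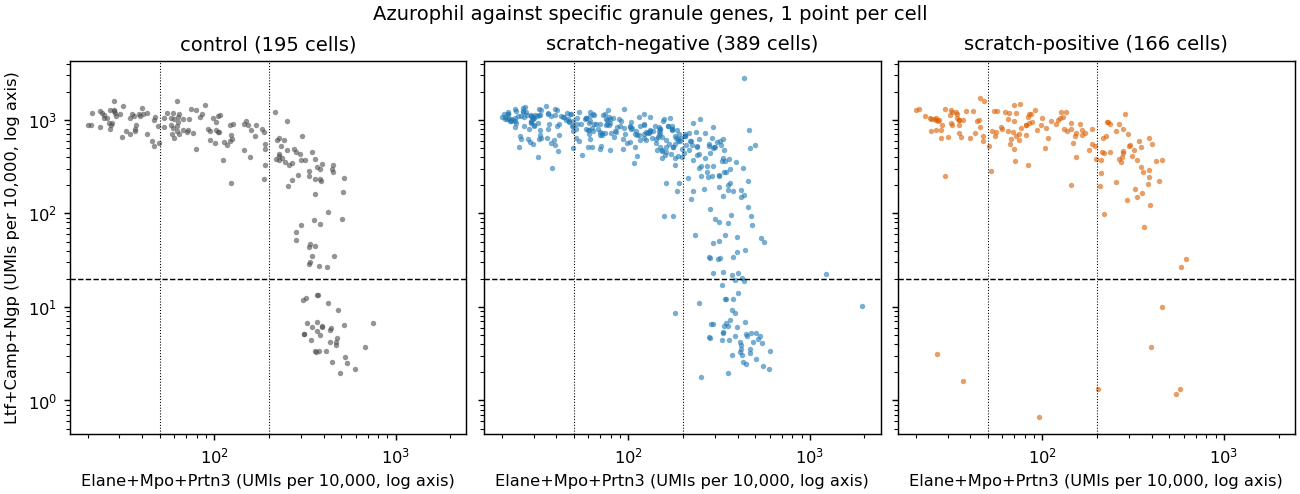
Each point is 1 Elane/Mpo/Prtn3-positive cell, with the rule score Elane+Mpo+Prtn3 on the x axis and Ltf+Camp+Ngp on the y axis, both in CP10K on log axes, in 1 panel per library. The dashed line marks 20 CP10K of Ltf+Camp+Ngp and the dotted lines mark scores of 50 and 200. Cells low in Ltf+Camp+Ngp number 34, 51 and 8 and all other cells lie above the dashed line.

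A minority of the cells were low in specific granule transcripts. Ltf+Camp+Ngp was under 20 CP10K in 17.4% (12.4 to 23.5) of the control cells, 13.1% (9.92 to 16.9) of the scratch-negative cells and 4.82% (2.10 to 9.27) of the scratch-positive cells. The intervals of control and scratch-positive do not overlap. Of these cells low in specific granule transcripts, 34 of 34, 50 of 51 and 5 of 8 had a rule score of 200 CP10K or more, which leaves 3 scratch-positive cells with a lower rule score as well. At the other end, 48.7, 52.7 and 63.3% of the cells held 600 CP10K or more, and cells with monocyte genes (Irf8+Ly86+Csf1r+F13a1 at 5 CP10K or more) numbered 1, 4 and 4. Of the cells with monocyte genes, 0, 2 and 3 were low in Ltf+Camp+Ngp. These are ranges of a score, and 11, 21 and 2 cells lay between 10 and 40 CP10K of Ltf+Camp+Ngp. By Ltf+Camp+Ngp, scratch-positive cells thus leaned to the specific granule end. Rule scores of 200 CP10K or more were held by 46.2, 38.3 and 31.9% of cells, which is description only since the rule used that score.

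The cells were then ordered by the rule score in 3 ranges, 200 CP10K or more, 50 to 200 and 20 to 50, given in that order for 1 library at a time. These bounds were chosen after the data were seen. In the control, Ctsg went down along the ranges, at 5166, 406 and 87.0 CPM. Mpo, at 5002, 872 and 109 CPM, is part of the score and is description only. Camp went up, at 13638, 51088 and 63876 CPM, as did the chitinase-like gene Chil3 at 1133, 4108 and 6305 CPM. Lcn2, the iron-chelator carrier lipocalin of specific granules, was at 1089, 6579 and 9049 CPM. Outside the rule genes, the high end of the score thus carried more Ctsg and the low end more Camp and Lcn2, in every library. In the scratch-positive ranges Ctsg was at 3546, 297 and 50.8 CPM and Camp at 24669, 46451 and 54725 CPM.

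Transcription factors split into 3 patterns along the score. Factors of early myeloid cells were highest in the top range of the control, where Myb was at 149, 39.4 and 26.9 CPM, Gfi1 at 59.98, 20.3 and 12.9 CPM and Cebpa at 36.0, 8.36 and 9.32 CPM. Myc, which drives growth, was at 34.3, 5.08 and 4.14 CPM and Lmo2, a bridging factor of blood progenitors, at 117, 58.2 and 60.6 CPM. Cebpe, Cebpd and Spi1 were nearly level, with Cebpe at 459, 461 and 517 CPM, Cebpd at 296, 299 and 266 CPM and Spi1 at 367, 352 and 357 CPM. Irf8 was higher towards the low end of the score, at 2.88, 5.08 and 7.77 CPM in the control, 5.43, 13.2 and 18.0 CPM in the scratch-negative and 0.939, 21.4 and 32.5 CPM in the scratch-positive ranges. These levels are low, and Csf1r was also lowest in the top range of each library (4.56, 15.5 and 16.6 CPM in the control). The part of transcripts of other cell types in this pattern along the score was not tested. Kit followed the early factors with 45.1, 19.7 and 17.6 CPM.

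Genes of protein and ribosome production followed the azurophil genes. Hspa5 (BiP), the main chaperone of the endoplasmic reticulum, was at 608, 179 and 114 CPM in the control ranges and its cofactor Sdf2l1 at 295, 51.7 and 25.9 CPM. The 15 chaperone and unfolded protein genes summed to 3764, 1396 and 982 CPM and the 15 ribosome biogenesis genes to 2378, 794 and 594 CPM. Npm1, a nucleolar chaperone of ribosome assembly, was at 1113, 322 and 226 CPM. Mitotic genes did not follow this order, with Mki67 at 188, 290.0 and 278 CPM and Top2a at 256, 288 and 337 CPM in the control, and replication genes were mixed. The replication helicase gene Mcm3 was lower towards the low end of the score in each library, at 92.9, 71.1 and 46.6 CPM in the control ranges, 99.1, 70.2 and 57.2 CPM in the scratch-negative and 97.7, 82.9 and 61.2 CPM in the scratch-positive ones. The replication clamp gene Pcna was at 140.4, 144 and 103 CPM in the control. The 19 replication genes summed to 1406, 1409 and 1126 CPM in the control, 1504, 1340.4 and 1138 CPM in the scratch-negative and 1589, 1423 and 1423 CPM in the scratch-positive ranges, and the 20 mitotic genes to 5641, 5875 and 6853 CPM in the control. Median depth in these control ranges was 44132, 45142 and 38867 UMIs per cell.

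**Figure D3:**
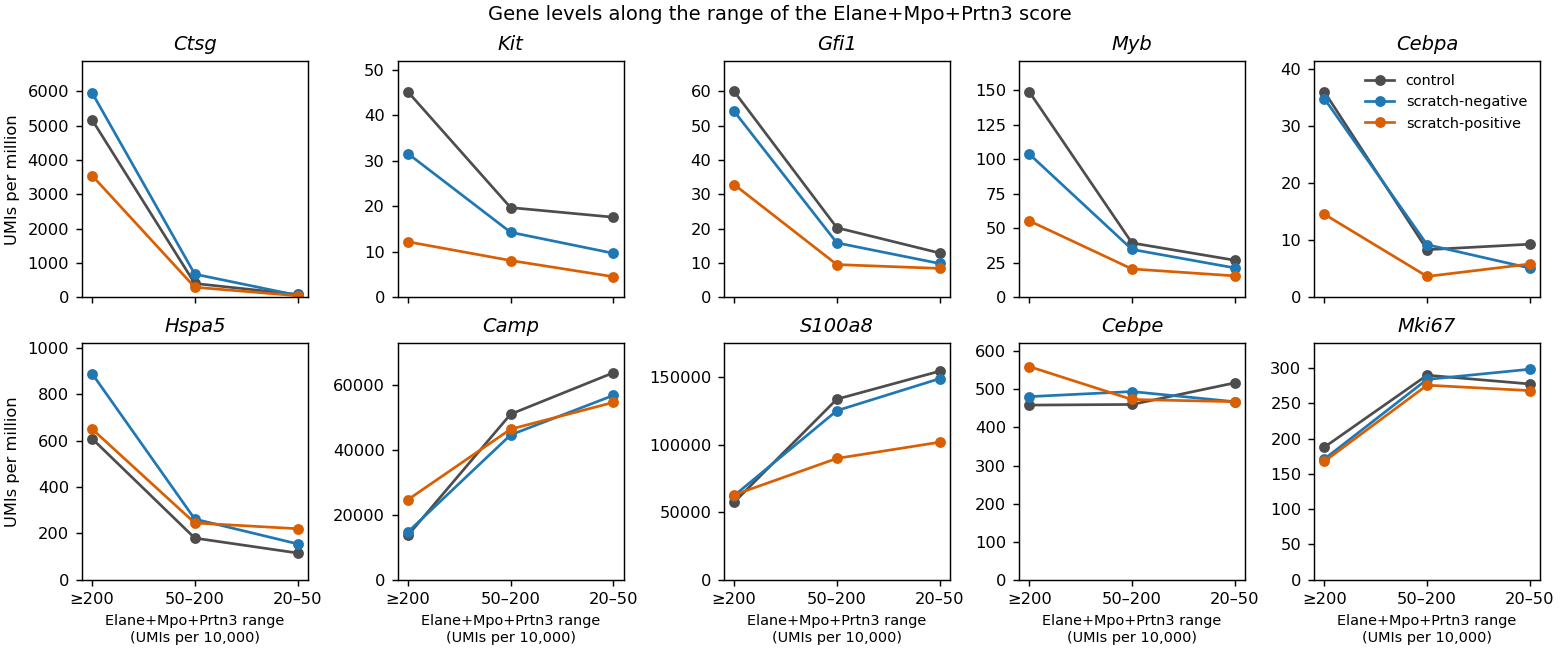
Level (CPM, linear axes from 0, 1 panel per gene) of 10 genes in the Elane/Mpo/Prtn3-positive cells by range of the rule score (x axis: 200 or more, 50 to 200, 20 to 50 CP10K), 1 line per library. Ctsg, Kit, Gfi1, Myb, Cebpa and Hspa5 are highest in the top range, Camp and S100a8 in the lowest range, and Cebpe is nearly level (control 459, 461 and 517 CPM).

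Most of the positive cells held transcripts of dividing cells. After thinning, Mki67, a marker of proliferation, was seen in 60.7, 59.4 and 55.8% of them (95.4, 96.9 and 97.0% before thinning) and in 25.7, 27.7 and 32.1% of Camp-high cells. Top2a, the topoisomerase of chromosome segregation, was seen in 66.0, 65.4 and 60% (90.8, 93.8 and 93.4% before thinning) and 22.8, 24.96 and 31.3%. The 20 mitotic genes had a median of 29.0, 29.0 and 30.0 UMIs per thinned positive cell against 8.00, 8.00 and 9 in Camp-high cells. Summed over the cells the contrast was smaller: the mitotic genes made up 5972, 6103 and 6454 CPM in the positive cells and 5051, 4853 and 4495 CPM in Camp-high cells. No phase was called for single cells.

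Beside Camp-high cells of the same library, 424 of 9660 genes were 2-fold or more higher in the positive cells in each library (4.39%) and 405 were lower (4.19%). The rule and the comparator split the same lineage by these transcripts, so this contrast is a description and nothing is read from its counts. The 10 genes with the largest smallest fold were Ctsg (359, 387 and 596-fold higher), Gstm1, Cst7, Nkg7, Fbp1, Hsd17b1, Prss57, Ms4a3, Kcnk12 and Dmkn. Gstm1, a glutathione transferase, was 29.0, 26.3 and 21.1-fold higher and Cst7, cystatin F, an inhibitor of granule cathepsins, 72.7, 64.0 and 18.1-fold higher. Of the 14 azurophil genes 9 were higher and none lower, and of the 15 specific granule genes 1 was higher and 8 lower. Of the 19 replication genes 12 were higher and none lower. Of the 20 mitotic genes only 1 was higher, with median log2 ratios of 0.48, 0.55 and 0.62. Mmp8, the neutrophil collagenase of late stages, was 7.94, 6.18 and 6.79-fold lower. The lower end also held Jchain, Hbb-bs, Hbb-bt, Hba-a1 and Hba-a2, genes of plasma cells and red cells that neither group should make, beside Stfa2, Stfa3, Ggt1 and Gpr27.

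Beside the monocyte comparator, 366 of 8107 genes were higher in each library (4.51%) and 1269 lower (15.7%). Highest were Ms4a3 (296, 394 and 1113-fold), Mogat2, Ctsg, Aff2, Prss57, Camp, Fcnb, Abca13, Ldhc and Orm1. Camp is part of the Ltf+Camp+Ngp score that was kept low in the comparator, so its place here is description only. Mogat2, a monoacylglycerol acyltransferase, was at 61.4, 45.0 and 39.8 CPM in the positive cells and at or near 0 in the comparator. Lowest were Tmem51, Tnip3, Lifr, Pkib, Dse, Padi2, Cxcl9, Rarg, Olfm1 and Tbc1d9. Of the 14 monocyte-directed genes 13 were lower, including genes that the comparator was chosen by, and of 19 interferon response genes 16 were lower.

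Against the control, the scratch-negative cells were higher in inflammatory and interferon genes, with most granule genes within 2-fold. Of 9519 genes compared, 277 were 2-fold or more higher (2.91%) and 52 lower (0.546%). Of the 15 inflammatory cytokines and NF-kB targets 11 were higher and none lower, with a median log2 ratio of 1.33 beside 0.03 over all genes compared. Among the 20 interferon response genes 11 were higher and none lower (median 1.16). Of 11 JAK-STAT feedback and target genes 5 were higher (median 0.72).

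Against the control, the scratch-positive cells had higher values of most inflammatory genes than the scratch-negative cells had, and lower values of some genes such as Kit and Myb. Here 371 of 8512 genes were higher (4.36%) and 238 lower (2.8%). Of the 15 inflammatory genes 14 were higher (median log2 2.61 beside 0.04 over all genes), 8 of 11 JAK-STAT genes (median 1.43) and 7 of 18 interferon genes (median 0.87), with none lower. Both comparisons use the same control library. The scratch-positive cells differed from the scratch-negative ones in 219 genes higher (2.33%) and 190 lower (2.02%) of 9418. In that comparison 12 of 15 inflammatory genes were higher (median 1.50), while of 20 interferon genes none was higher and 1 lower (median -0.43).

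Several chemokines that draw neutrophils and monocytes differed between the libraries by more than 10-fold. Cxcl2, a ligand of the neutrophil receptor CXCR2, stood at 29.9, 436 and 1584 CPM, 14.6-fold (12.98 to 16.5) higher in scratch-negative and 53.1-fold (47.1 to 59.95) higher in scratch-positive cells than in the control. After thinning it was seen in 6.28, 23.0 and 36.4% of the positive cells (15.4, 56.0 and 54.2% before thinning). Camp-high cells of the same libraries stood at 93.9, 1234 and 2605 CPM and the monocyte comparator at 136, 2543 and 3583 CPM, above the positive cells and in the same order of libraries. Ccl3 (2.12, 53.2 and 150.1 CPM) and Ccl4 (4.66, 131 and 435 CPM), inflammatory CC chemokines, and Cxcl3 (1.59, 43.1 and 136 CPM) ran in the same order, from a few CPM in the control to over 100 in the scratch-positive cells. Whether free RNA from other cells adds to these levels was not tested.

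Cytokines and NF-kB feedback genes were in the same order. Il1b, the interleukin-1β precursor, was at 102, 327 and 1218 CPM, 3.20-fold (2.99 to 3.42) and 11.9-fold (11.1 to 12.7) above the control, and at 374, 865 and 2145 CPM in Camp-high cells. Nfkbia, the inhibitor IκBα that NF-kB itself induces, was at 149, 259 and 585 CPM and was 3.94-fold (3.703 to 4.19) higher in the scratch-positive cells. Ier3, an early response gene, was at 38.6, 83.7 and 281 CPM and Tnf at 8.47, 17.3 and 52.0 CPM. For Nfkbia the 5 highest cells of each library held 14.8, 14.0 and 23.4% of the UMIs, against 59.9, 32.0 and 38.5% for Cxcl2.

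Cxcl2 and Il1b were higher at the specific granule end of the set than at the azurophil end, and differed between the libraries at both. In the range of 200 CP10K or more, where Csf1r was at 4.56, 4.01 and 7.99 CPM, Cxcl2 was at 4.56, 145 and 633 CPM and Il1b at 40.8, 138 and 501 CPM. In the range of 50 to 200 CP10K, Cxcl2 was at 65.7, 374 and 2066 CPM and Il1b at 178, 362 and 1453 CPM. In the range of 20 to 50 CP10K, Cxcl2 was at 22.3, 982 and 2052 CPM and Il1b at 104, 559.6 and 1794 CPM. The control was thus highest in the middle range for both genes, and scratch-positive Cxcl2 was nearly level between the middle and lowest ranges. Pim1 was more even along the score, with 54.2, 137 and 186 CPM at the top and 55.4, 155 and 227 CPM at the bottom. In each range the control was lowest for these 3 genes and the scratch-positive library highest.

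Several genes downstream of myeloid cytokine receptors were higher in both tumour libraries. Pim1, a survival kinase induced through STAT3 and STAT5, was at 62.7, 143 and 200.1 CPM, 2.27-fold (2.08 to 2.49) and 3.19-fold (2.89 to 3.53) above the control. The feedback inhibitor Socs3 was at 5.61, 21.1 and 48.0 CPM and Socs1 at 2.96, 15.7 and 22.1 CPM. Bcl3, a nuclear IκB family member, was at 7.52, 19.5 and 25.4 CPM. Csf2rb, the shared β chain of the receptors for GM-CSF, interleukin-3 and interleukin-5, was at 30.1, 67.3 and 90.9 CPM (2.24-fold and 3.02-fold) and Il4ra, the interleukin-4 receptor α chain, at 5.72, 16.4 and 23.7 CPM. Most receptors stayed within 2-fold: 3 and 5 of 15 were higher in the scratch-negative and scratch-positive cells, and Csf3r, the G-CSF receptor, was at 51.2, 57.4 and 56.7 CPM.

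Interferon genes formed a different order, with the scratch-negative cells at or near the top for several. Isg15, a ubiquitin-like protein induced by type I interferon, was at 18.7, 71.0 and 48.6 CPM, and Irf1, induced by interferon-γ, at 13.3, 45.7 and 41.2 CPM. Gbp2, a guanylate-binding protein induced by interferon-γ, was at 1.69, 44.4 and 53.1 CPM, from 16 UMIs in the control. Ifitm1, counted here in the suppressive myeloid list although it is also an interferon-induced membrane protein, was at 13.02, 101 and 236 CPM (7.78-fold and 18.1-fold above the control). Without the cells that carried markers of other types, described further on, the interferon list's median log2 for scratch-positive over control moved from 0.87 to 0.33.

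**Figure D4:**
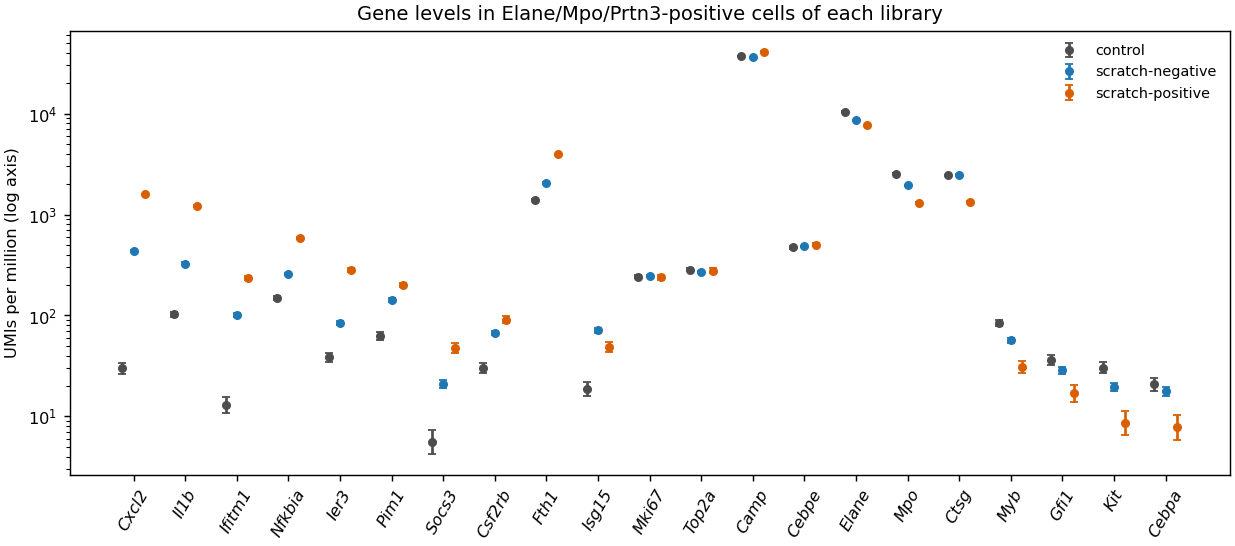
Level (CPM, log axis) of 21 genes in the Elane/Mpo/Prtn3-positive cells of each library, with exact Poisson 95% bars for counting error. Cxcl2 goes from 29.9 to 1584 CPM between control and scratch-positive and Kit from 30.5 down to 8.62 CPM, while Cebpe, Mki67 and Camp stay within 2-fold.

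Kit, Myb, Cebpa and Gfi1 were lower in the scratch-positive cells. Kit was at 30.5, 19.6 and 8.62 CPM (288, 409 and 55 UMIs), 3.54-fold (2.64 to 4.81) lower than in the control. Myb, needed for the growth of immature blood cells, was at 85.1, 57.0 and 31.0 CPM, 2.74-fold (2.34 to 3.22) lower. Cebpa, which commits progenitors to the granulocyte line, was at 20.7, 17.7 and 7.84 CPM, 2.65-fold (1.93 to 3.69) lower. Gfi1, a repressor that holds back the monocyte programme, was at 36.3, 28.6 and 17.1 CPM, 2.13-fold (1.71 to 2.66) lower, and was within 2-fold under some of the other settings (log2 from -1.17 to -0.87). The scratch-negative cells lay between the other libraries for these 4 genes, within 2-fold of the control. Myc and Lmo2, which were also highest in the top range of the control, were within 2-fold in scratch-positive over control (log2 -0.47 and -0.57). Of the 4 stem and multipotent genes compared there, 2 were lower and 1 higher.

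The order of the libraries was mostly the same within ranges of the rule score, although fewer scratch-positive cells were in the top range. Within the range of 200 CP10K or more, Kit was at 45.1, 31.6 and 12.2 CPM, Myb at 149, 104 and 55.4 CPM, Cebpa at 36.0, 34.8 and 14.6 CPM and Gfi1 at 59.98, 54.2 and 32.9 CPM. Within 20 to 50 CP10K, Kit was at 17.6, 9.69 and 4.56 CPM and Myb at 26.9, 21.4 and 15.6 CPM. The scratch-positive library was lowest in each of these. Cebpa was the exception in the range of 20 to 50 CP10K, at 9.32, 5.14 and 5.86 CPM, where the scratch-negative cells were lowest. Top-range cells there also held more Camp than the control's (13638, 14685 and 24669 CPM), so a range does not hold like cells in each library. With the 3 ranges weighted equally, the log2 ratio of scratch-positive to control was -1.72 for Kit, -1.23 for Myb, -1.15 for Cebpa and -0.87 for Gfi1, which is then within 2-fold, beside -1.81, -1.45, -1.40 and -1.08 over all the cells.

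Most other factors of the list stayed within 2-fold. Of 17 granulocyte and monocyte factors compared, 2 were higher and 3 lower in scratch-positive over control, and 2 higher and none lower in scratch-negative over control. Cebpe was at 471, 483 and 501 CPM, Spi1 at 359.7, 410.0 and 488 CPM and Cebpd, an acute-phase member of the family, at 291, 286 and 324 CPM. The higher ones in scratch-positive cells were Irf8 (4.66, 11.48 and 17.2 CPM) and Egr1, an immediate early gene (1.91, 11.53 and 32.6 CPM).

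Some of the lower genes had lower values in Camp-high cells of the same libraries too, and others did not. Pdcd4, an inhibitor of translation, was at 96.0, 46.1 and 16.8 CPM, 2.08-fold (1.90 to 2.28) and 5.73-fold (4.68 to 7.06) lower, and at 34.0, 16.6 and 16.0 CPM in Camp-high cells. Rnaset2a (137, 50.9 and 51.1 CPM, and 43.8, 19.5 and 19.6 CPM in Camp-high cells) and Rnaset2b (146, 60.1 and 50.9 and 30.7, 15.5 and 15.3 CPM) are near-identical ribonuclease genes whose reads may be split uncertainly. The histone gene Hist1h2ap stood at 4259.9, 3786 and 740.4 CPM, within 2-fold between control and scratch-negative, and 5.75-fold (5.58 to 5.93) lower in scratch-positive cells than in the control. Camp-high cells showed the same step, with Hist1h2ap at 2164, 1906 and 391 CPM, and so did Grcc10 (49.8, 35.7 and 9.87 CPM in the positive cells, 39.5, 33.4 and 11.8 CPM in Camp-high cells) and Bloc1s1 (57.7, 47.3 and 15.05 and 53.3, 43.9 and 14.7 CPM). Hist1h2ap belongs to a family of near-identical genes, and why the step runs through the library was not tested. Tslp, the cytokine thymic stromal lymphopoietin, was low at 8.26, 1.87 and 1.10 CPM and was at 0.112, 0.0496 and 0.123 CPM in Camp-high cells.

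The main programme of the cells stayed within 2-fold. None of the 20 mitotic genes was 2-fold higher or lower in any comparison, and of 19 replication genes 1 was higher, in scratch-positive over control. Mki67 was at 242, 246 and 238 CPM and Top2a at 284, 269 and 279 CPM. Of 14 azurophil genes 1 was higher in each comparison (Ctsc, the dipeptidyl peptidase that activates the granule proteases, at 16.8, 42.5 and 92.9 CPM) and none lower. Of 15 specific and gelatinase granule genes 1 was higher in scratch-positive over control (Lcn2). For scratch-positive over scratch-negative, the log2 ratio of Ctsc went from 1.13 to 0.39 without the cells that carried markers of other types, which ends the call. Camp was at 37179, 36536 and 41175 CPM, and Lcn2 at 4661, 6608 and 9462 CPM, 2.03-fold (2.01 to 2.05) higher in scratch-positive cells, and within 2-fold under some other settings (log2 from 0.84 to 1.26). None of the 6 NADPH oxidase genes, which make the oxidant burst, and none of the 15 ribosome biogenesis genes passed 2-fold in any comparison. Haptoglobin (Hp), an acute-phase protein stored in neutrophil granules, was at 1408, 1719 and 2390.0 CPM.

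Iron handling genes were among the abundant transcripts that differed. Fth1, the ferritin heavy chain, was at 1392, 2067 and 3948 CPM, 2.84-fold (2.78 to 2.90) higher in scratch-positive cells. Hmox1, haem oxygenase 1, was at 4.45, 15.4 and 45.3 CPM, with 23.8, 36.4 and 63.3% of its UMIs in its 5 highest cells. The cell cycle inhibitor Cdkn1a was at 89.0, 125 and 242 CPM. Fth1 was higher along the whole score, with 1006, 1468 and 2307 CPM in the top range and 1412, 2542 and 5045 CPM in the lowest.

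Transcripts of other cell types were present in some of the cells and differed between the libraries. The 12 macrophage and osteoclast genes summed to 323, 343 and 1284 CPM in the positive cells, 1039.8, 1219 and 3663 CPM in Camp-high cells and 1177, 1731 and 5479 CPM in all other kept barcodes. Of 10 compared, 8 were higher in scratch-positive over control (median log2 2.96). Spp1, osteopontin, was at 51.4, 57.5 and 216 CPM in the positive cells and 233, 655 and 2946 CPM in other kept barcodes, and Ctsk, the collagen-cleaving protease of osteoclasts, at 12.6, 17.8 and 289 and 52.0, 175 and 1119 CPM. Carcinoma genes summed to 11.54, 13.6 and 25.2 CPM with 6, 3 and 4 of 10 genes at 0, fibroblast and stromal genes to 14.4, 86.7 and 48.0 CPM with 2, 0 and 2 of 10 at 0. Basophil, mast cell and eosinophil genes summed to 254, 235 and 216 CPM with 7, 4 and 8 of 14 at 0, and lymphoid genes to 36.7, 26.9 and 12.9 CPM with 0, 0 and 3 of 12 at 0. Dendritic cell genes summed to 330.2, 531 and 742 CPM with 1, 0 and 3 of 11 at 0, and 4 of 6 compared were higher in scratch-positive over control. Erythroid and megakaryocyte genes summed to 36.0, 117 and 136 CPM with none of 12 at 0, and 5 of 7 and 3 of 5 were higher in scratch-negative and scratch-positive cells over the control. Of the fibroblast and stromal genes 6 of 7 and 3 of 3 were higher, and of the monocyte-directed genes 2 and 5 of 14. The part of these transcripts in the values of other genes was tested only by leaving out the cells described next.

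A count of 9 defining genes of other types (C1qa, C1qb, C1qc, Ctsk, Pf4, Cd79a, Cd79b, Cd3d and Cd3e) at 5 CP10K or more marked 3, 13 and 17 of the positive cells, a filter chosen after the data were seen. Without them the number of genes higher in scratch-positive cells went from 371 to 174 against the control and from 219 to 62 against scratch-negative. The median log2 of the macrophage and osteoclast list for scratch-positive over control went from 2.96 to 0.41, that of the suppressive myeloid list from 2.52 to 0.81 and that of the dissociation and stress list from 0.95 to 0.35. The inflammatory list kept a median of 2.15 and the JAK-STAT list 1.18. Over the 3 comparisons, 4 list medians went from a log2 size of 1 or more to under 1, the macrophage and suppressive ones above among them. For single genes, the log2 ratio of scratch-positive to control without those cells was 5.37 for Cxcl2, 3.17 for Il1b, 1.60 for Pim1 and -1.86 for Kit, beside 5.73, 3.57, 1.67 and -1.81 with them. Irf8 went from 1.87 to 0.86 and Csf1r from 1.21 to -0.59, a change of sign.

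**Figure D5:**
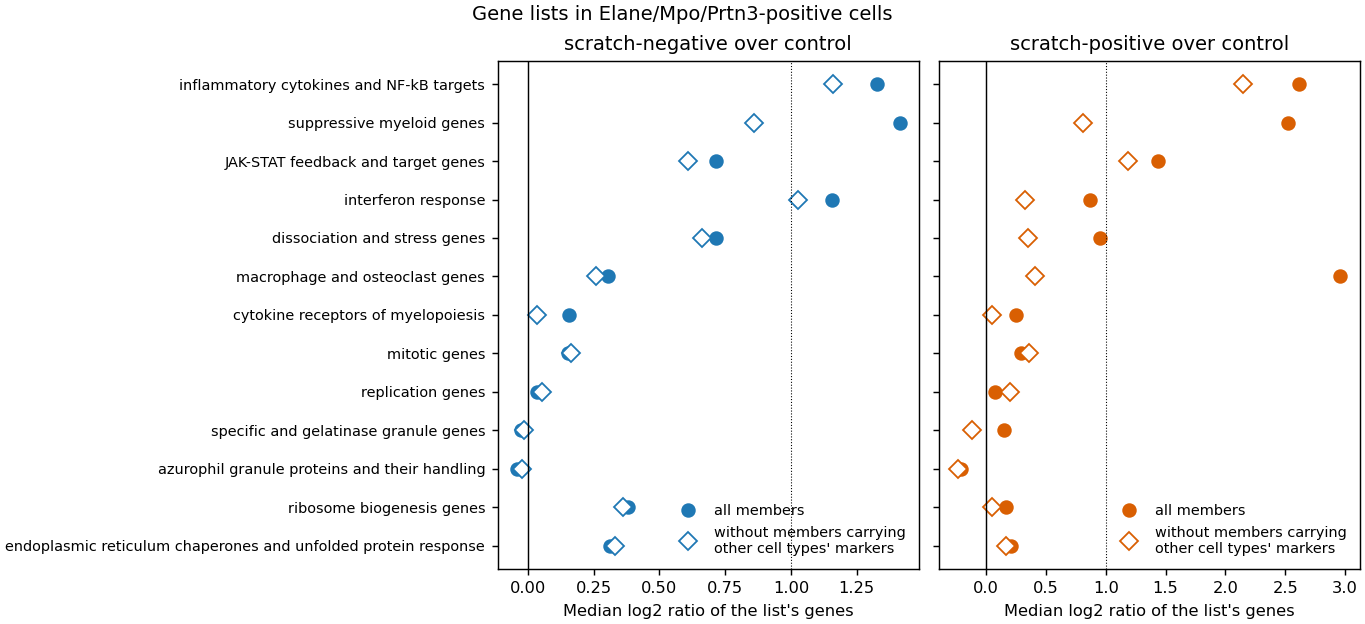
Median log2 ratio of 13 gene lists in the Elane/Mpo/Prtn3-positive cells, scratch-negative over control and scratch-positive over control, for all the cells and without the 3, 13 and 17 cells with markers of other types. The dotted line marks a log2 ratio of 1. The inflammatory list stays past it (2.61 and 2.15 for scratch-positive over control), whereas the macrophage and osteoclast list does not (2.96 and 0.41).

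Several of the genes with the largest ratios rested on few cells. Arg1, arginase 1, was at 0, 16.1 and 27.3 CPM; with no UMI in the control it was at least 50.6-fold and 85.9-fold higher against a floor of 3 UMIs. Its 5 highest cells held 84.5% and 81.6% of its UMIs in the scratch-negative and scratch-positive libraries. Ccl2 and Ccl7, ligands of the monocyte receptor CCR2, were at 1.80, 26.7 and 152 and 0.318, 13.2 and 65.0 CPM, and Ccl2 went from a log2 ratio of 2.51 to 0.28 for scratch-positive over scratch-negative without the cells marked above.

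Arg1 stands in the suppressive myeloid list, of which 6 of 11 genes were higher in scratch-negative and 6 of 9 in scratch-positive cells over the control. Arg1 and Nos2, the genes without a control UMI, lie above the list's median of 1.41 at their lower bounds too (50.6-fold and 8.89-fold in scratch-negative cells). Wfdc17, a secreted antiprotease-like protein of myeloid cells, was at 19.6, 78.04 and 122 CPM, and its log2 ratio of scratch-positive to control was 2.63 with and 2.48 without the cells marked above. Cd274, the checkpoint ligand PD-L1, was at 3.18, 14.2 and 18.5 CPM, with 2.52 and 1.95. Ifitm1 went from 4.17 to 3.73. The Cd274 values rest on 30, 297 and 118 UMIs.

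Ly6a (Sca-1), counted in the stem and multipotent list and also known as an interferon-induced surface protein, was at 4.76, 27.0 and 51.4 CPM, 5.68-fold and 10.8-fold above the control, while Kit of the same list was lower in scratch-positive cells. Without the cells with markers of other types its log2 ratio of scratch-positive to control went from 3.41 to 2.54. Ccr1, a chemokine receptor of maturing neutrophils and monocytes, was the only gene of the 12 compared in the marrow retention and trafficking list to pass 2-fold over the control, at 27.3, 55.2 and 90.4 CPM. Its log2 ratio of scratch-negative to control was 1.01, within 2-fold under some other settings (from 0.82 to 1.19). Cxcr4, which holds neutrophil precursors in marrow, was at 55.9, 43.9 and 34.0 CPM. The dissociation and stress genes, which also respond to tissue digestion, had 6 and 7 of 15 higher in scratch-negative and scratch-positive cells over the control. The handling of the tissue is not given per library in the sources used here, and its part in the inflammatory values was not tested. In that list Fos was at 373, 318 and 322 CPM and Dusp1, a phosphatase induced with it, at 22.02, 45.1 and 88.4 CPM.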

How the data were processed

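The authors deposited 1 matrix of UMI counts per library (10x Genomics 3′ chemistry, DNBSEQ-G400). The counts are whole numbers per gene and barcode that the authors made with Cell Ranger 6.1.2 on mm10, per the file headers and the submitters' processing notes. Barcodes were kept and chosen as the report's opening states. No replicate exists, so no test was made. UMIs were summed over the chosen cells of a library and scaled to CPM with exact Poisson intervals, and ratios of libraries were given exact conditional binomial intervals, all at 95%. A gene was compared with 50 or more UMIs in both libraries together and called at 2-fold. Log2 ratios had 0.5 UMI added on each side. Python 3.11.15, numpy 2.4.6, pandas 2.3.3, scipy 1.17.1 and matplotlib 3.10.9 were used, and the ratio script was tested on simulated data. Scrublet (scanpy 1.11.5) called 1, 0 and 581 doublets on its own threshold, so scores were ranked at 0.8% per 1000 barcodes, and no barcode was removed in the main values.

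The positive cells held 9446681, 20899563 and 6380308 UMIs in all, which sets the intervals. Named genes were the 10 highest and 10 lowest per comparison by the interval bound nearest 1, among genes whose level in the higher library was at least 20% of that in other barcodes, without rule, mitochondrial, ribosomal, immunoglobulin and unnamed genes, beside any gene of the lists. For comparators the smallest ratio over the 3 libraries ranked them. The cells and the gene lists were chosen with earlier results of these data known. Alternatives covered the score limit, gene and mitochondrial limits, doublets, the Ptprc part, denominator, filter, scaling, cell weights and depth.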

Additional observations from a re-analysis of the deposited data

How the results depend on the processing

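No paired analysis was possible because each group is 1 library. Shares moved with the score limit, to 4.03, 7.06 and 5.34% at 10 CP10K and 2.76, 4.97 and 3.52% at 40 CP10K, in the same order of libraries. Of all kept barcodes they were 4.77% (scratch-negative) and 1.82% (scratch-positive), which puts scratch-positive under the control's 2.96%. With Ltf+Camp+Ngp limited at 50 CP10K, 17.0% of scratch-negative cells were low. With monocyte genes limited at 10 CP10K, 0% (control) and 0.602% (scratch-positive) were high. A filter of 10 UMIs, which lets in genes of few counts, gave 796 higher and 283 lower genes for scratch-negative over control, 857 and 650 for scratch-positive over control, and 575 and 634 for scratch-positive over scratch-negative. Weighting each cell equally gave 122, 386 and 333 lower genes in those comparisons. Leaving out each gene's highest 3% of cells gave 94 lower genes for scratch-negative over control and 414 for scratch-positive over scratch-negative. Without cells carrying markers of other types, 174 genes were higher in scratch-positive over control and 62 over scratch-negative, a setting chosen after seeing the data like the one before it and the equal weight of 3 score ranges. The log2 ratio of Csf1r, scratch-positive over control, changed sign to -0.59 without the cells with markers of other types. Weighting the 4 ranges of specific granule and monocyte score equally was planned and not run, since 1 of them held no control cell. The causes of these shifts were not tested beyond what each setting removes. Median-of-ratios scaling, doublet removal, the gene minimum, the mitochondrial limit and the Ptprc part left the shares and the counts of called genes within their intervals or within 1.5 times. Which genes were called moved more. With doublet removal, 183 of the 277 genes higher in scratch-negative over control stayed called. For scratch-positive over scratch-negative, 156 of 219 higher and 137 of 190 lower genes did. It also took 2 list medians from a log2 size of 1 or more to under 1.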
